A study of Mus musculus with 12 samples.

Results

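The replication-dependent histone genes encode the bulk of the histone proteins that package newly copied DNA. They were taken here as every gene of the count files whose symbol in GENCODE release M21 starts with Hist1h, Hist2h, Hist3h or Hist4h. After 3 pseudogenes (Hist1h2aj, Hist1h2al and Hist3h2bb-ps) were left out, 67 genes remained of the 54532 genes counted. They comprised 6 genes for the linker histone H1, 18 for H2A, 18 for H2B, 12 for H3 and 13 for H4. The largest cluster, Hist1, lies on mouse chromosome 13 and held 54 of them, Hist2 on chromosome 3 held 10, Hist3 on chromosome 11 held 2 and Hist4 on chromosome 6 held 1.

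RNA was sequenced from cultures of L929, an established mouse fibroblast cell line, in 12 libraries that the labels place in 6 groups of 2. The groups were mock (cells without treatment), cells transfected with HT-DNA, with hpRNA, with G3-YSD or with HSV, and cells stimulated with cGAMP, a cyclic dinucleotide that activates the innate immune adaptor STING. The abbreviations are those of the labels, and every group shared the same line, for which the labels name no genetic change. The labels time RNA collection at 6 hours after transfection and state polyA selection followed by paired reads of 150 bases. The labels state duplicate transfections but say no more of how the paired libraries were made, so the p-values below measure the spread between such libraries, which may be technical. The digit ending each title was taken as the replicate. In the HSV titles it could instead be a virus type; the pair would then be single libraries of different treatments, with no meaningful mean or test. The source name reads as a mouse fibroblast line for mock, HT-DNA and hpRNA and as L929 for cGAMP, G3-YSD and HSV, and a preparation that differed between these sets and the treatments cannot be told apart.

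Each nucleosome wraps DNA around a core built from H2A, H2B, H3 and H4, and H1 binds the DNA that enters and leaves it. The replication-dependent genes are transcribed mainly in S phase, in clusters that hold the factor NPAT. Their mRNAs are the known exception among animal mRNAs in that they normally carry no polyA tail: they end just after a conserved stem-loop, which is bound by the stem-loop binding protein SLBP and cut with the help of the U7 snRNP, whose own subunits include LSM10 and LSM11. Transcripts that run past the stem-loop to a polyA signal are also known, mainly in cells that have stopped dividing. A library made from polyA-selected RNA therefore does not measure the usual form of these mRNAs, and the levels below describe only the RNA that was captured.

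The stem-loop was located in the annotated transcripts as GG, 3 bases of any kind, TTT, 2 of any kind, A, 3 of any kind and CC on the transcript's own strand, with arms of 6 bases that pair with at most 1 mismatch, within 100 bases after the stop codon. It was found in 44 of the 67 genes and in 0.037% of the other coding genes. The remaining 23 have no match inside the annotated transcript, which says only that these letters are not in that stretch. Examples from the genes on which the results turn are shown 5′ to 3′, with the paired arms in capitals and with the mm10 position of the 16 bases from arm to arm.
Hist1h1c (H1, chr13:23739512-23739527, plus strand): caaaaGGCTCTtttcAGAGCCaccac
Hist1h1e (H1, chr13:23621782-23621797, minus strand): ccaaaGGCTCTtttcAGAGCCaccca
Hist3h2a (H2A, chr11:58955172-58955187, plus strand): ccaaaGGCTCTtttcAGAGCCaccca
Hist1h2bg (H2B, chr13:23571843-23571858, plus strand): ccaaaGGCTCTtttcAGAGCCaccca
Hist1h2bf (H2B, chr13:23573765-23573780, minus strand): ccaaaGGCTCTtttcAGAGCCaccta
Hist1h3d (H3, chr13:23576244-23576259, plus strand): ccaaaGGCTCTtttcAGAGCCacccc
Hist2h3c2 (H3, chr3:96238485-96238500, minus strand): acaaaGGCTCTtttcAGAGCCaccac
Hist1h4d (H4, chr13:23581950-23581965, plus strand): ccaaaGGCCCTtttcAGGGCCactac
Hist1h4j (H4, chr13:21735437-21735452, plus strand): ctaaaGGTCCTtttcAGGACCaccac
Hist2h4 (H4, chr3:96262939-96262954, minus strand): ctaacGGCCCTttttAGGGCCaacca
The core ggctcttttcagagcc, with arms of GGCTCT and AGAGCC as in Hist1h1c, was shared by 26 of the 44 genes. The core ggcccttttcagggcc of Hist1h4d stood in 7 genes, and that of Hist2h4, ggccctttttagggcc, in 2. The annotation ran on past the stem-loop by more than 20 bases in 41 of the 44 genes and ended at it in 3. The annotated stretch after the stop codon fell into a long class of 28 genes with 150 to 4931 bases and a short class of 39 genes with 0 to 114 bases, a division at 120 bases set after the annotation was seen. A polyA signal, AATAAA or ATTAAA, lay in the last 50 annotated bases of 16 of the 28 long genes and of 1 of the 39 short ones. Hist1h4k, the gene with the smallest adjusted p among the histone genes below, is annotated as 312 coding bases only, and Hist1h1c has 880 annotated bases after its stop codon.

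The captured histone RNA was a very small part of each library. Total counts ran from 12650790 to 18912400 per library. The 67 genes together took 0.0042% to 0.0061% of the counts in the 8 libraries of mock, HT-DNA, hpRNA and cGAMP. Their share was 0.0310% in G3-YSD 1, 0.00892% in G3-YSD 2, 0.0289% in HSV 1 and 0.00937% in HSV 2. Both libraries numbered 1 of G3-YSD and HSV thus held several times more histone counts than any other library, and their partners numbered 2 held more than the other 8. In all, 6 of the 67 genes had no count in any library, 16 had under 10 counts in all, and 34 had a count in every library. In mock 1 the 67 genes held 816 counts, so a single gene often rested on a few reads.

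The G3-YSD and HSV libraries also stood apart over the whole transcriptome, and the partners of a label differed from each other. A count was seen for 21635 to 22550 genes in the 8 other libraries, for 26496 in G3-YSD 1, 23997 in G3-YSD 2, 26241 in HSV 1 and 23909 in HSV 2. G3-YSD 1 resembled HSV 1, and G3-YSD 2 resembled HSV 2: deviations from the label means of same-numbered libraries had r = 0.957 across the 16840 genes, which share the libraries and are no replicates. Whether the number marks a shared preparation, or labels were exchanged between these 4 libraries, was not tested, and every G3-YSD and HSV mean below takes the labels as given. Of the fibroblast markers listed, 9 of 12 exceeded 1 CPM (counts scaled to library size, with TMM factors). Dcn, however, was at 0 in all libraries, Lum was at 0 in 11 of 12 and Thy1 was at most 0.488 CPM. The summed fibroblast level ran from 3144 to 3456 CPM in the 8 other libraries. Below that range lay 2898 CPM (G3-YSD 1) and 2720 CPM (HSV 1). Above it lay their partners numbered 2, at 4342 and 4240 CPM. Only Fbn1 was called against mock, at 63.2 to 73.0 CPM in the 8 and 110 to 127 in the other 4. Its log2 fold change was 0.84 (G3-YSD, edgeR quasi-likelihood adjusted p 0.018) and 0.75 (HSV, adjusted p 0.021). Of 13 markers of other cell types, 3 had a mean above 1 CPM over the 12 libraries, led by Cd68 at 57.5 to 91.3 CPM. Pecam1, with a lower mean, stood at 2.92 CPM in G3-YSD 2 and 3.47 in HSV 2. It stood at 0.156 to 0.613 CPM in the other 10 libraries. Ptprc, also with a lower mean, reached at most 1.08 CPM, in cGAMP 1. The summed level of the 13 markers, most of it Cd68, was 79.8 CPM in G3-YSD 1, 89.9 in HSV 1 and 93.3 to 116 in the other 10 libraries. The part of these markers in the histone results was not tested.

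Summed over each histone type, the linker histone gave the largest value in 11 of the 12 libraries, the exception being HSV 2, where H4 was larger. The summed H1 level was 17.6 and 20.8 CPM in mock, 15.8 and 32.2 in HT-DNA, 17.7 and 22.1 in hpRNA, 14.9 and 29.5 in the cGAMP pair, 227 and 32.1 in the G3-YSD pair and 207 and 30.2 in the HSV pair, each pair in the order library 1, library 2. The summed H2B level was 11.6 to 15.2 CPM in the 8 libraries of the first 4 labels, 46.3 in G3-YSD 1, 22.5 in G3-YSD 2, 46.2 in HSV 1 and 21.2 in HSV 2. Both types were highest in the libraries numbered 1, by far more for H1 than for H2B.

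H4 had the other order. Its summed level was 6.54 to 10.8 CPM in the first 8 libraries, 17.9 in G3-YSD 1, 28.5 in G3-YSD 2, 19.7 in HSV 1 and 33.8 in HSV 2. Here the libraries numbered 2 were the highest, while all 4 lay above the other 8. The summed H3 level was 3.14 to 4.48 CPM in the 8 libraries, 9.92 in G3-YSD 1, 5.84 in G3-YSD 2, 7.05 in HSV 1 and 6.61 in HSV 2. The summed H2A level was 3.19 to 5.12 CPM in the 8 libraries, 11.6 in G3-YSD 1, 5.23 in G3-YSD 2, 11.5 in HSV 1 and 6.03 in HSV 2, so the H2A level of G3-YSD 2 lay just above the highest of the 8. In bulk RNA, more cells that make a transcript and more of it per cell cannot be told apart.

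**Figure D1:**
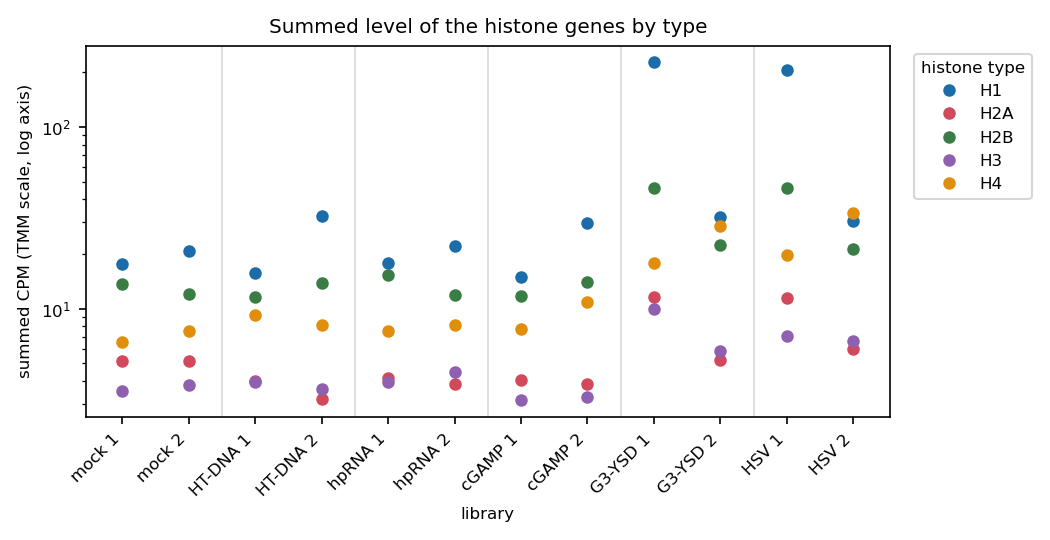
Summed level of the 67 histone genes by histone type in each of the 12 libraries, in CPM on the TMM scale (log axis, 1 point per type and library). H1 reaches 227 CPM in G3-YSD 1 and 207 in HSV 1 against 14.9 to 32.2 in all other libraries, while H4 is highest in HSV 2 at 33.8 and G3-YSD 2 at 28.5.

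A single gene, Hist1h1c, carried much of the total. Hist1h1c encodes a somatic H1 subtype. It lies at chr13:23738808-23740367 on the plus strand of mm10, and all of its 150-base windows were found in no other annotated gene. Its level was 16.2 and 17.7 CPM in mock, 13.5 and 28.1 in HT-DNA, 16.9 and 18.4 in hpRNA, 13.2 and 26.0 in the cGAMP pair, 202 and 26.1 in the G3-YSD pair and 185 and 26.2 in the HSV pair. Only G3-YSD 1 and HSV 1 lay far from the rest, and G3-YSD 2 and HSV 2 lay above both mock libraries but below HT-DNA 2. The mean was 114 ± 125 CPM in G3-YSD and 106 ± 112 in HSV against 16.9 ± 1.05 in mock (SD, n = 2 each). The log2 fold change of 2.75 (SE 1.07) in G3-YSD had an adjusted p of 0.172 and that of 2.64 (SE 1.07) in HSV one of 0.180 (edgeR's quasi-likelihood test, Benjamini-Hochberg over 16840 genes), so neither passed the threshold of 0.05. Without G3-YSD 1 and HSV 1, an alternative chosen after the data were seen, the log2 fold changes were 0.61 and 0.62, and without G3-YSD 2 and HSV 2 they were 3.57 and 3.44. With Hist1h1c set aside, the sum over the other histone genes was 28.3 to 35.3 CPM in the 8 libraries, 110 in G3-YSD 1, 68.2 in G3-YSD 2, 106 in HSV 1 and 71.7 in HSV 2.

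The other somatic H1 genes had the same 2 libraries on top. Hist1h1e stood at 0.512 and 1.04 CPM in mock, 0.833 and 1.47 in HT-DNA, 0.114 and 1.23 in hpRNA, 0.811 and 1.10 in the cGAMP pair, 10.1 and 1.61 in the G3-YSD pair and 7.85 and 1.16 in the HSV pair. Its HSV 2 value lay within the range of the first 8 libraries, and its exons overlap those of Hist1h2be on the same strand, so reads of these genes may be shared. Hist1h1d stood at 0.739 and 0.976 CPM in mock, 0.989 and 1.66 in HT-DNA, 0.514 and 1.34 in hpRNA, 0.433 and 1.43 in the cGAMP pair, 6.55 and 2.77 in the G3-YSD pair and 6.13 and 2.15 in the HSV pair. For Hist1h1d all 4 G3-YSD and HSV libraries were above the other 8, with a log2 fold change of 2.44 (SE 0.80, edgeR quasi-likelihood adjusted p 0.118) in G3-YSD and 2.27 (SE 0.79, adjusted p 0.136) in HSV. Hist1h1b, an H1 subtype typical of dividing cells, stood at 6.32 CPM in G3-YSD 1 and 6.07 in HSV 1 and at 0 to 1.15 CPM in the other 10 libraries. Hist1h1a stood at 1.65 and 1.59 CPM in those same 2 libraries, at 0.461 in G3-YSD 2, 0.248 in HSV 2 and at 0 to 0.208 in the other 8. The sixth H1 gene, the testis-type Hist1h1t, had counts only in G3-YSD 2 and HSV 2, at 0.0769 and 0.0826 CPM.

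Of the 67 genes, 31 passed the filter on low counts and were tested: 5 for H1, 3 for H2A, 8 for H2B, 5 for H3 and 10 for H4. Of the other 36, 30 had at least 1 count and 6 had none. The filter needs a minimum level in 2 libraries, and 10 of the 31, Hist1h2bf, Hist1h2bm and Hist2h3c2 among them, passed it only through the G3-YSD and HSV libraries; the 21 others also passed on the 8 remaining libraries alone.

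Against mock, 2 of the 31 histone genes rose in G3-YSD and the same number in HSV, and in both comparisons these were the H4 genes Hist1h4k and Hist2h4 (adjusted p under 0.05). Over all 16840 genes tested, 5.16% were called in G3-YSD against mock (1.79% higher) and 5.2% in HSV against mock (1.73% higher). The histone share of 6.45% is thus near the background of calls in either direction. It lies above the background of genes called higher, but rests on 2 genes. No histone gene fell, where 3.37% and 3.47% of all genes did. These 2 comparisons share the mock libraries, and their values are given side by side.

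Hist1h4k lies at chr13:21750194-21750505 on the minus strand. Its level was 1.36 and 1.22 CPM in mock, 2.13 and 2.09 in HT-DNA, 1.26 and 1.23 in hpRNA, 1.03 and 1.88 in the cGAMP pair, 6.44 and 7.84 in the G3-YSD pair and 7.23 and 8.92 in the HSV pair. These came from 24 and 20 counts in mock, 109 and 102 in the G3-YSD pair and 118 and 108 in the HSV pair. All 4 G3-YSD and HSV libraries lay above the other 8 with no overlap. The mean was 7.14 ± 0.995 CPM in G3-YSD and 8.08 ± 1.19 in HSV against 1.29 ± 0.102 in mock (SD, n = 2 each). The log2 fold change was 2.46 (SE 0.32, edgeR quasi-likelihood adjusted p 0.0128) in G3-YSD and 2.64 (SE 0.32, adjusted p 0.0101) in HSV. Only 46.6% of its 150-base windows were found in no other annotated gene, and the rest were shared with Hist1h4a, Hist1h4b, Hist1h4c, Hist1h4h, Hist1h4i or Hist1h4j, so the counting may have split reads among these copies or left them out.

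Hist2h4 lies apart from that cluster, at chr3:96261682-96263311 on the minus strand, and all of its 150-base windows were found in no other gene. Its level was 1.31 and 1.77 CPM in mock, 1.20 and 0.860 in HT-DNA, 1.77 and 1.23 in hpRNA, 1.30 and 1.49 in the cGAMP pair, 4.96 and 6.77 in the G3-YSD pair and 4.60 and 6.94 in the HSV pair. The 4 libraries of G3-YSD and HSV again lay above the other 8. The mean was 5.86 ± 1.28 CPM in G3-YSD and 5.77 ± 1.65 in HSV against 1.54 ± 0.326 in mock (SD, n = 2 each), and the log2 fold change was 1.92 (SE 0.36, edgeR quasi-likelihood adjusted p 0.0262) and 1.90 (SE 0.36, adjusted p 0.0257). The calls of Hist1h4k and Hist2h4 rested on few libraries. Without mock 1 or without mock 2 neither gene was called in either comparison, with log2 fold changes of 2.38 to 2.71 for Hist1h4k and 1.69 to 2.16 for Hist2h4. Over all genes the call count without either mock library was also 0 in both comparisons. Without G3-YSD 2 no histone gene was called in that comparison and 77 of all genes were (0.433%), and without HSV 2 only Hist1h4k was, with 130 of all genes (0.736%). Without G3-YSD 1 and HSV 1 the log2 fold changes of Hist1h4k were 2.59 and 2.77, and without G3-YSD 2 and HSV 2 they were 2.30 and 2.47.

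**Figure D2:**
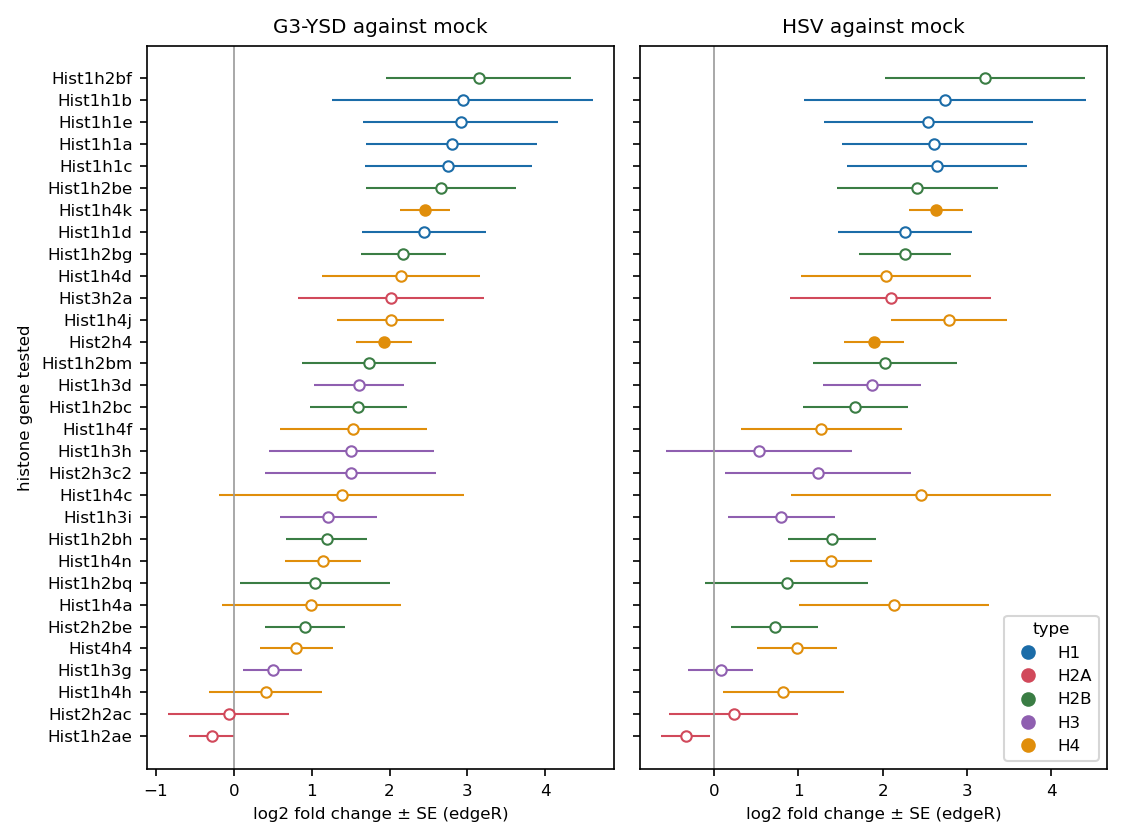
Log2 fold change with its standard error (edgeR) of the 31 histone genes tested, in G3-YSD against mock (left) and HSV against mock (right), coloured by type, with filled points for an adjusted p under 0.05. The filled points are Hist1h4k at 2.46 and 2.64 and Hist2h4 at 1.92 and 1.90, and the H1 genes have fold changes as large but wider errors.

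Hist1h2bg lay just short of the threshold in both comparisons. Hist1h2bg, an H2B gene at chr13:23571396-23572013, stood at 0.455 and 0.793 CPM in mock, 0.468 and 0.737 in HT-DNA, 0.628 and 0.392 in hpRNA, 0.433 and 0.389 in the cGAMP pair, 3.66 and 2.00 in the G3-YSD pair and 4.05 and 1.98 in the HSV pair. All 4 G3-YSD and HSV values lay above the other 8. Its log2 fold change was 2.18 (SE 0.54, edgeR quasi-likelihood adjusted p 0.0599) in G3-YSD and 2.27 (SE 0.55, adjusted p 0.0541) in HSV. The H4 gene Hist1h4j stood at 0.227 and 0.549 CPM in mock, 0.364 and 0.798 in HT-DNA, 0.399 and 1.01 in hpRNA, 0.649 and 1.17 in the cGAMP pair, 1.48 and 1.69 in the G3-YSD pair and 1.96 and 3.47 in the HSV pair. It was above the other 8 libraries in all 4, with a log2 fold change of 2.01 (SE 0.68, edgeR quasi-likelihood adjusted p 0.129) and 2.78 (SE 0.69, adjusted p 0.0582).

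The position of both libraries against both mock libraries was also counted. Among the 21 histone genes that passed the filter without help from G3-YSD or HSV, 15 had both G3-YSD libraries above both mock libraries and 1 had both below. Of the 14534 genes that passed in the same way, 19.2% lay above and 26.2% below. In HSV, 14 of the 21 lay above and 1 below, against 19.3% and 26.4% of these genes. The median log2 fold change of the 21 was 1.92 in G3-YSD and 1.90 in HSV, beside 0.00 and -0.01 over the 14534 genes. The gene below mock was Hist1h2ae in both comparisons.

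Hist1h2ae was the H2A gene with the highest level per length, at 2.86 CPM per kb over the 12 libraries. It stood at 2.73 and 2.81 CPM in mock, 1.61 and 1.47 in HT-DNA, 1.65 and 1.79 in hpRNA, 1.84 and 1.36 in the cGAMP pair, 2.01 and 2.54 in the G3-YSD pair and 1.90 and 2.48 in the HSV pair. The mock pair was above all 10 other libraries. The log2 fold change was -0.84 in HT-DNA, -0.68 in hpRNA, -0.78 in cGAMP, -0.29 in G3-YSD and -0.34 in HSV, and the lowest edgeR quasi-likelihood adjusted p of these was 0.487. These 5 comparisons share the 2 mock libraries. Hist1h2ae overlaps the gene Gm44394 on the opposite strand, and 75.5% of its windows were found in no other gene. Hist2h2ac stood at 0.184 to 0.628 CPM in the 8 libraries of mock, HT-DNA, hpRNA and cGAMP. It stood at 0.472 and 0.308 in the G3-YSD pair and 0.245 and 0.743 in the HSV pair, and was not called. Hist1h2ak, which was not tested, stood at 0.122 to 0.514 CPM in all 12 libraries.

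In HT-DNA, hpRNA and cGAMP against mock, edgeR called none of the 31 histone genes and 0% of all genes. The DESeq2 alternative also called no histone gene there. At an unadjusted p under 0.05, 1 histone gene, Hist1h2ae, passed in each of the 3 comparisons, beside 62 (0.368%), 58 (0.344%) and 99 (0.588%) of all genes. Both libraries lay above both mock libraries for 8 histone genes in HT-DNA (13.8% of all genes did), 4 in hpRNA (10.5%) and 6 in cGAMP (14.9%). They lay below for 5 (14% of all genes), 2 (10.3%) and 5 (15.1%). HSV against G3-YSD gave no called histone gene by edgeR or DESeq2, 0% of all genes called by edgeR, and no histone gene at an unadjusted p under 0.05, beside 33 of all genes (0.196%). In that comparison 2 histone genes had both HSV libraries above both G3-YSD libraries (3.49% of all genes did) and 0 below (3.5%), and the median log2 fold change of the 31 was -0.02.

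The 2 libraries of G3-YSD, and likewise of HSV, divided the histone types between them. Among the 21 genes that passed the filter on the 8 other libraries alone, the 2 highest of the 12 libraries were G3-YSD 1 and HSV 1 for 11, which are all 4 H1 genes, 1 of 3 H2A genes, all 5 H2B genes, 1 of 2 H3 genes and 0 of 7 H4 genes. Over the 14534 genes that passed in the same way, this order held for 20.5%. The 2 highest were G3-YSD 2 and HSV 2 for 6 of the 21, all of them among the 7 H4 genes, against 24.4% of the 14534. For 8 of the 21 the 4 highest libraries were these 4, against 10.1%: Hist1h1d, Hist1h2bg, Hist1h2bh, Hist1h3d, Hist1h4j, Hist1h4k, Hist1h4n and Hist2h4. These counts describe the libraries and were not tested.

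**Figure D3:**
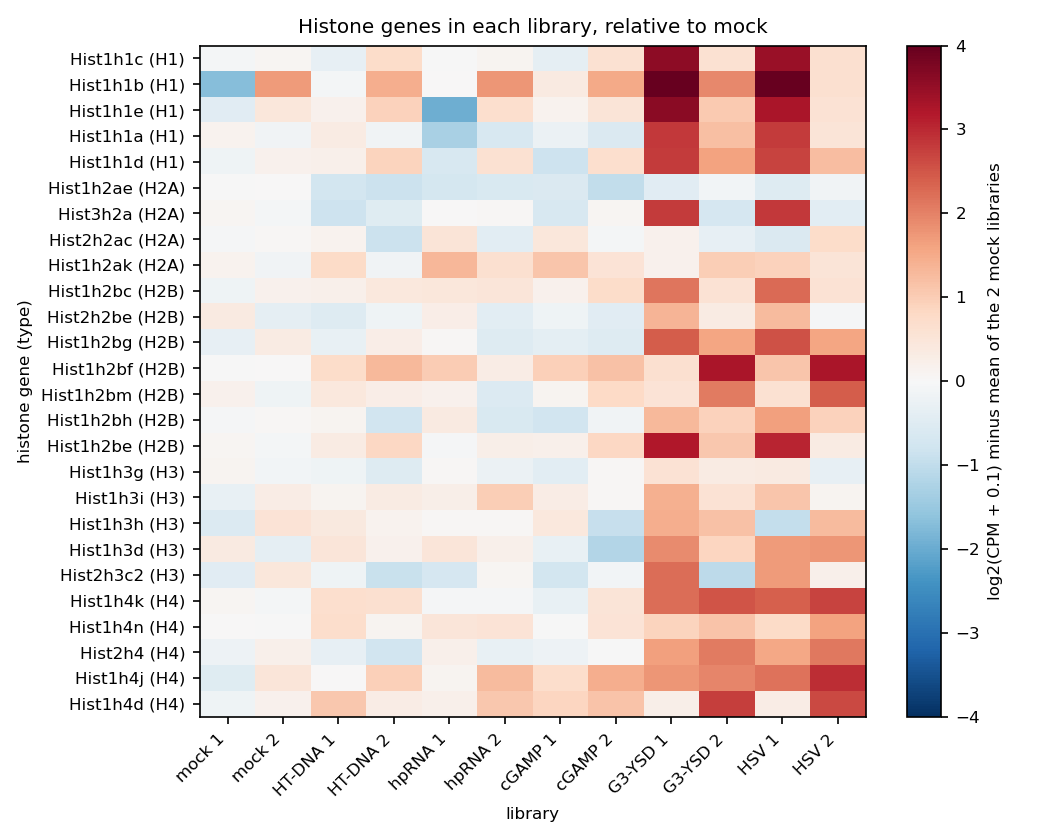
Level of named histone genes in each library, as log2(CPM + 0.1) minus the mean of the 2 mock libraries, by type; the colour scale stops at 4 in either direction. The H1 rows are darkest in G3-YSD 1 and HSV 1, Hist1h4d and Hist1h2bf are darkest in G3-YSD 2 and HSV 2, and Hist1h4k and Hist2h4 are raised in all 4.

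Hist3h2a and Hist1h4d are examples of the opposite orders. Hist3h2a, an H2A gene of the small cluster at chr11:58954685-58956830, stood at 0.966 and 0.854 CPM in mock, 0.468 and 0.614 in HT-DNA, 0.913 and 0.952 in hpRNA, 0.541 and 0.973 in the cGAMP pair, 6.85 and 0.538 in the G3-YSD pair and 7.11 and 0.661 in the HSV pair. G3-YSD 2 and HSV 2 lay below both mock libraries, and the log2 fold changes of 2.02 (SE 1.19, edgeR quasi-likelihood adjusted p 0.322) and 2.10 (SE 1.19, adjusted p 0.307) turned to -0.76 and -0.47 without G3-YSD 1 and HSV 1. Its exons overlap those of Trim17 on the same strand, which stood at 7.09 CPM in G3-YSD 1, 4.97 in HSV 1 and 1.46 to 2.93 in the other 10 libraries. Hist1h4d stood at 0.512 and 0.671 CPM in mock, 1.35 and 0.737 in HT-DNA, 0.685 and 1.34 in hpRNA, 1.14 and 1.43 in the cGAMP pair, 0.709 and 4.61 in the G3-YSD pair and 0.736 and 4.21 in the HSV pair. For it G3-YSD 1 and HSV 1 lay inside the range of the other 8, all of its windows were found in no other gene, and the log2 fold change in G3-YSD was 2.15 (SE 1.01, edgeR quasi-likelihood adjusted p 0.235).

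Among the 8 H2B genes tested, only Hist1h2bf and Hist1h2bm had G3-YSD 2 and HSV 2 highest. Both passed the filter only through the G3-YSD and HSV libraries. All 5 H2B genes that passed without them had G3-YSD 1 and HSV 1 highest. Hist1h2bc, the H2B gene with the highest level per length at 5.03 CPM per kb, stood at 2.73 to 5.19 CPM in the first 8 libraries, 14.1 in G3-YSD 1, 4.69 in G3-YSD 2, 15.1 in HSV 1 and 4.62 in HSV 2. Hist2h2be stood at 4.01 to 7.39 CPM in the 8, 14.9 in G3-YSD 1, 7.30 in G3-YSD 2, 13.9 in HSV 1 and 5.53 in HSV 2. In both genes the libraries numbered 2 fell within the range of the other labels. Hist1h2bf, by contrast, stood at 0.114 to 0.430 CPM in the 8, 0.236 in G3-YSD 1, 2.00 in G3-YSD 2, 0.368 in HSV 1 and 1.98 in HSV 2, with 74 annotated bases after its stop codon. Hist1h2bf, Hist1h2bg and Hist1h2bh had identical counts in G3-YSD 2 (26 each) and in HSV 2 (24 each). Hist1h2bf and Hist1h2bh share windows with Hist1h2bg, and whether they share reads was not tested. Hist1h2bm, with all windows unique, also had 24 counts in HSV 2. Hist1h2bm stood at 0.168 to 0.584 CPM in the 8, 0.472 and 0.490 in G3-YSD 1 and HSV 1, and 1.54 and 1.98 in G3-YSD 2 and HSV 2. Hist1h2be, which shares exon sequence with Hist1h1e, stood at 6.73 CPM in G3-YSD 1 and 6.07 in HSV 1 against 0.610 to 1.46 in the other 10. Hist1h2bh stood at 0.541 to 1.31 CPM in the 8, 2.60 and 2.00 in the G3-YSD pair and 3.31 and 1.98 in the HSV pair.

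The H3 genes were low throughout. Hist1h3g, the H3 gene with the highest level per length at 2.40 CPM per kb, stood at 0.860 to 1.36 CPM in the 8 libraries, 1.95 in G3-YSD 1, 1.61 in G3-YSD 2, 1.66 in HSV 1 and 0.991 in HSV 2, so HSV overlapped the other labels. Hist1h3d stood at 0.568 and 0.305 CPM in mock, 0.130 to 0.628 in HT-DNA, hpRNA and cGAMP, 1.83 and 0.846 in the G3-YSD pair and 1.59 and 1.65 in the HSV pair, with no overlap. Hist2h3c2 stood at 0.184 to 0.610 CPM in the 8, 2.36 in G3-YSD 1, 0.154 in G3-YSD 2, 1.59 in HSV 1 and 0.495 in HSV 2. As with Hist3h2a, only the libraries numbered 1 stood out, and G3-YSD 2 had the lowest value of all 12 libraries. Hist1h3i stood at 0.284 to 0.840 CPM in the 8, 1.18 and 0.615 in the G3-YSD pair and 0.920 and 0.413 in the HSV pair. Hist1h3h stood at 0.0649 to 0.366 CPM in the 8, 0.768 and 0.615 in the G3-YSD pair and 0.0613 and 0.661 in the HSV pair. No H3 gene was called.

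Hist1h4n and Hist4h4, also H4 genes, differed less between labels. Hist1h4n stood at 0.487 to 0.885 CPM in the 8 libraries, 1.00 and 1.23 in the G3-YSD pair and 0.920 and 1.73 in the HSV pair. Hist4h4, the only gene of the Hist4 cluster, stood at 0.793 to 2.72 CPM in the 8, 1.77 and 2.92 in the G3-YSD pair and 2.33 and 2.97 in the HSV pair, so its labels overlapped. Neither was called.

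Inside each label the ratio of library 1 to library 2 restates these library values in 1 number per gene, and adds no support to the split. It was taken for genes whose pair held 20 counts or more, so a gene could enter through the library where it was high. The 10 genes that passed the filter on low counts only through G3-YSD or HSV are among them. They include Hist1h1a of H1 and Hist1h4a, Hist1h4c and Hist1h4f of H4. In G3-YSD the median log2 ratio was 2.41 for H1 (5 of 5 genes above 0), 0.94 for H2B, 0.89 for H3, -0.45 for H4 (0 of 7 above 0) and 3.58 for the 3 H2A genes (2 of 3 above 0). In HSV it was 2.72 for H1 (5 of 5), 1.17 for H2B, 0.89 for H3, -0.90 for H4 (0 of 9) and 1.48 for the 2 H2A genes (1 of 2). The corresponding median over all genes with as many counts was 0.04 in G3-YSD and 0.02 in HSV, with 22.9% and 22.1% of genes above a log2 ratio of 1. For H1 the median ratio in the other labels was -0.39 in mock, -0.81 in HT-DNA, -1.68 in hpRNA and -0.98 in cGAMP. None of the 3 or 4 H1 genes with enough counts was above 0 there. Some rested on few reads, such as Hist1h1e with 2 and 22 counts in hpRNA. The ratio of Hist1h1c was -0.13, -1.05, -0.12 and -0.98 in that order of labels. The H2B medians were -0.10, -0.33, 0.33 and -0.62. In cGAMP every type had a median below 0, while H4 was -0.11 in mock, 0.32 in HT-DNA and -0.02 in hpRNA.

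The ratio was set beside the annotated length after the stop codon. Among genes with long annotated ends the median log2 ratio was 1.15 in G3-YSD (18 genes, 11 above 1) and 1.01 in HSV (19 genes, 10 above 1). Among genes with short ends it was -0.01 (10 genes, 2 above 1) and -0.30 (9 genes, 3 above 1). Hist1h1a and Hist1h1b, the H1 genes in the short class, had ratios above 0. Hist1h1a is among the genes that entered the test only through these labels. Hist1h1b has 0 annotated bases after its stop codon, which leaves the length of its RNA end unknown. The H4 genes in the long class, Hist1h4d and Hist2h4 among them, had ratios below 0. The part of end length in the library split was not tested. Long genes held 86.4% of all histone counts and short genes 13.6%, and their median levels per length were 0.616 and 0.383 CPM per kb. Whether the captured RNA ended at the stem-loop or past it is not recorded in gene counts and was not tested.

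**Figure D4:**
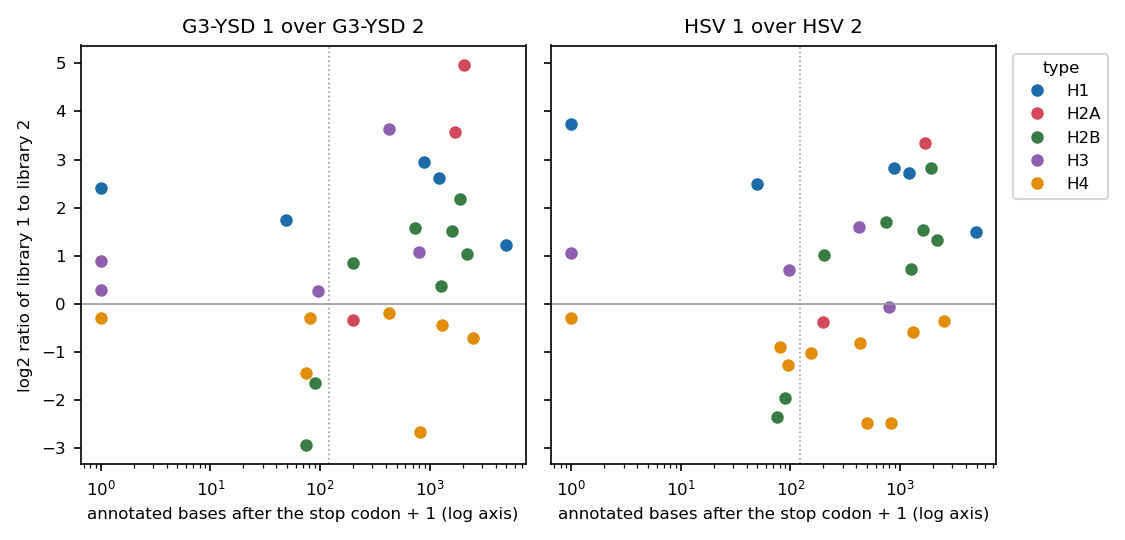
Log2 ratio of library 1 to library 2 in G3-YSD (left) and HSV (right) against the annotated bases after the stop codon plus 1 (log axis), 1 point per histone gene whose pair held 20 counts or more, coloured by type; the dotted line marks 120 bases. H1 points lie above 0 and H4 points below 0 on both sides of that line, and the medians of long genes are 1.15 and 1.01.

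Sequence shared with other annotated genes was measured beside the counts. The annotated exons of each gene were cut into all windows of 150 bases, the length of 1 read. Each window was searched in the transcripts of other genes. A shared window can come from a similar copy or from a gene whose exons overlap at the same place. Hist2h2bb shared windows only with Gm20628 and Gm42743, which overlap it, and Hist3h2a only with the overlapping Trim17. For 5 genes (Hist2h2aa1, Hist2h2aa2, Hist2h2bb, Hist2h3b and Hist2h3c1) no window was unique, and all 5 had 0 counts in all 12 libraries. The 19 genes with 0.1% to 50% unique windows had a median of 21 counts over all libraries, the 30 genes with 50.1% to 99.9% a median of 80.5 and the 13 genes with only unique windows a median of 108 (1 to 9668). Median counts thus were lowest where the sequence was least unique, but genes with all windows unique also reached down to 1 count. These counts were not scaled by annotated length, which also differed, for example 312 bases in Hist1h4k and 1560 in Hist1h1c. The part of length was not tested. Hist1h2ba, a testis-type H2B gene, had 0 counts with 88.1% of its windows unique. Of the 67 genes, 24 overlap an exon of another gene, 21 of them on the opposite strand. Some of these overlaps are counted among the shared windows. Whether the counting used strand is not given in the sources used here, and without it reads of such pairs cannot be told apart. How reads that match several genes were counted is not given either, so the part of shared sequence in these counts was not tested.

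**Figure D5:**
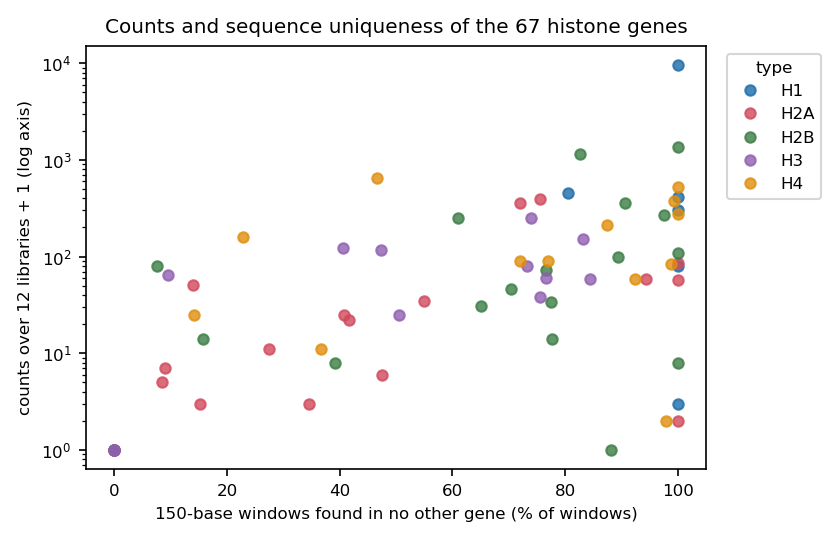
Counts over the 12 libraries plus 1 (log axis) against the percentage of 150-base windows found in no other gene, 1 point per histone gene, coloured by type. The 5 genes at 0% overlie each other at 0 counts, and Hist1h1c is the highest point at 100%.

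Promoter sequence divided the types as well. RefSeq promoters (GRCm38.p6, 250 bases before to 50 after the start) were matched for 62 of the 67 genes and searched on both strands for TATAAA, for CCAAT, for the octamer ATTTGCAT and for AAACACA, a motif known from H1 promoters. TATAAA was in 56.5% of the histone promoters and 13.6% of all 32544 promoters, and CCAAT in 85.5% and 37.4%. CCAAT was in every H1, H2A, H2B and H3 promoter matched and in 25% of H4 promoters. ATTTGCAT was in 38.9% of H2A and 37.5% of H2B promoters, in none of H1, H3 or H4, and in 1.75% of all. AAACACA was in 5 of 6 H1 promoters (83.3%) and in 7.2% of all promoters. The promoters of 3 genes whose libraries differed in order or that stood near the threshold are printed below on the gene's strand, with the matched letters, or their reverse complement, in capitals.
Hist1h1c (chr13:23738557-23738856, plus strand): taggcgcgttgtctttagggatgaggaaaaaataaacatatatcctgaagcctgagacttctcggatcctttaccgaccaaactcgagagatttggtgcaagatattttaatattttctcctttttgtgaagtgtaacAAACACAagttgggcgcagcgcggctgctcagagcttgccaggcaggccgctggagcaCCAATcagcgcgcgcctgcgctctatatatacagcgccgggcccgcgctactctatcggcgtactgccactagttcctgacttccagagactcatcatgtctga
Hist1h2bg (chr13:23571150-23571449, plus strand): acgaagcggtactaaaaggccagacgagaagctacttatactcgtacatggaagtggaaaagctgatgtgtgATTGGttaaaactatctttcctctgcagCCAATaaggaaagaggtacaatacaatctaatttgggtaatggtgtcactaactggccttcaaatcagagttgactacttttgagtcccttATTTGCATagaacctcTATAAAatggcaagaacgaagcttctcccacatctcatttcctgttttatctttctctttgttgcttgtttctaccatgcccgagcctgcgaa
Hist1h4k (chr13:21750504-21750803, minus strand): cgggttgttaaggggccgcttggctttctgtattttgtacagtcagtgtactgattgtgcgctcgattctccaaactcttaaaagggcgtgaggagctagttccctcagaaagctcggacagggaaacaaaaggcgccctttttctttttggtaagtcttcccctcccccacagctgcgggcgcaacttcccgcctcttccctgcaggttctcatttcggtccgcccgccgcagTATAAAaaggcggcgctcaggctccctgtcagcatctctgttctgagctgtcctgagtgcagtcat
Hist1h1c holds AAACACA and CCAAT without TATAAA, Hist1h2bg holds CCAAT on both strands, ATTTGCAT and TATAAA, and Hist1h4k holds TATAAA alone. A match describes the letters only, and binding was not measured.

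Genes for the machinery that makes and processes histone mRNA were read from fixed lists. Over all genes, 5.16% were called in G3-YSD and 5.2% in HSV against mock, and 0% in the other comparisons. Few or no calls in lists this short therefore say little. Of 19 genes for 3′ end processing, export and decay, none was called in any comparison. Slbp, the stem-loop binding protein, stood at 47.4 to 61.0 CPM in the first 8 libraries, 112 in G3-YSD 1, 27.8 in G3-YSD 2, 98.7 in HSV 1 and 25.5 in HSV 2. The libraries numbered 1 lay above and those numbered 2 below all others. Lsm10 stood at 15.3 to 19.1 CPM in the 8 libraries and within that range in G3-YSD 1 and HSV 1, but at 4.31 and 4.71 in G3-YSD 2 and HSV 2. Lsm11 stood at 35.7 to 43.3 CPM in the 8, 23.4 and 24.5 in the libraries numbered 1, and 12.5 and 13.3 in those numbered 2. Both partners of the U7 particle were thus lowest in G3-YSD 2 and HSV 2, with a log2 fold change for Lsm11 of -1.16 (SE 0.34, edgeR quasi-likelihood adjusted p 0.0941) in G3-YSD against mock. The part of Slbp, Lsm10 and Lsm11 in the histone levels was not tested.

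Of 13 genes for histone gene transcription, 1 fell in G3-YSD and in HSV and none rose. This was Yy1, a zinc-finger factor, which stood at 109 to 119 CPM in the 8 libraries and 64.7 to 74.6 in the other 4, a log2 fold change of -0.73 (SE 0.12, edgeR quasi-likelihood adjusted p 0.0212) and -0.75 (SE 0.12, adjusted p 0.0187). Npat, the histone cluster factor, stood at 34.7 to 38.7 CPM in the 8, 68.7 and 61.6 in G3-YSD 1 and HSV 1, and 43.0 and 42.1 in G3-YSD 2 and HSV 2, and was not called. Hinfp, a factor for H4 promoters, stood at 29.9 to 42.5 CPM in the 8, 31.4 and 32.3 in the libraries numbered 1, and 10.8 and 11.3 in those numbered 2. Hinfp was not called, and its part in the H4 levels was not tested. Casp8ap2 stood at 36.3 to 46.0 CPM in all 12 libraries. Of 18 histone chaperone genes, 1 fell, Chaf1a, a subunit of the chromatin assembly factor that deposits H3 and H4 behind the replication fork. It stood at 87.6 to 96.9 CPM in the 8 libraries and 42.2 to 58.2 in the other 4, with a log2 fold change of -0.90 (SE 0.16, edgeR quasi-likelihood adjusted p 0.0255) and -0.89 (SE 0.16, adjusted p 0.0240).

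None of 38 S phase genes was called in any comparison, beside 5.16% of all genes in G3-YSD and 5.2% in HSV against mock. Their summed level was 3625 to 3797 CPM in all 12 libraries. A sum does not show whether single genes moved in opposite directions, and the part of S phase in the histone levels was not tested. The summed level of the 67 histone genes over the same libraries ran from 41.5 CPM in cGAMP 1 to 313 in G3-YSD 1. Of 11 replication-independent histone variant genes, whose mRNAs mostly carry polyA tails, 9 were tested and none was called. Their summed level was 1896 to 2123 CPM in 10 libraries, 4276 in G3-YSD 1 and 4421 in HSV 1. H3f3b, which encodes H3.3, stood at 490 to 660 CPM in the 8 libraries, 2322 in G3-YSD 1, 566 in G3-YSD 2, 2331 in HSV 1 and 542 in HSV 2. H1f0, the replacement H1, stood at 406 to 602 CPM in the 8, 1182 and 1288 in the libraries numbered 1, and 266 and 277 in those numbered 2. The polyadenylated variants H3f3b and H1f0 were thus highest in the same 2 libraries as the H1 genes of the clusters. H3f3a and H2afz were instead highest in G3-YSD 2 and HSV 2. H3f3a, which also encodes H3.3, stood at 101 to 128 CPM in the 8 and at 124 and 116 in G3-YSD 1 and HSV 1. In G3-YSD 2 and HSV 2 it stood at 158 and 157. H2afz stood lower in G3-YSD 1 and HSV 1 (250 and 264 CPM) than in the other 10 (350 to 402). Its G3-YSD 2 and HSV 2 levels were 402 and 397 CPM. H2afx, whose mRNA exists with either end and whose transcript also holds the stem-loop letters, stood at 66.1 to 84.2 CPM in the 8, 47.5 and 41.2 in the libraries numbered 1, and 21.3 and 20.9 in those numbered 2.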

How the data were processed

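Raw counts per gene were deposited by the authors, 1 file per library, with HISAT2, HTSeq and the build mm10 named in the submitters' processing notes. Not given in the sources used here: tool versions, gene annotation, strand setting. Symbols, positions and transcripts come from GENCODE M21, which 54409 of the 54532 gene IDs matched. The analysis used edgeR 4.0.16 under R 4.3.3: low genes were filtered with its defaults (16840 left), libraries scaled by TMM, and quasi-likelihood models with a mean per label fitted to all 12 libraries (6 residual degrees of freedom, biological coefficient of variation 0.397). A gene was called at a two-sided Benjamini-Hochberg adjusted p under 0.05 over all genes tested. The 6 comparisons were each treatment against mock and HSV against G3-YSD. CPM values were computed from the deposited counts, errors of means are SDs, and levels per length used annotated exon bases. Counting error alone makes values of a few counts imprecise.

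The histone genes and all gene lists were chosen with earlier results of these data known. Genes named are called members, the 4 of each type with the highest mean CPM per kb, up to 6 more with the widest range, and a fixed set of related genes. Hist1h1t, Hist1h2ba, Trim17, Pecam1 and Ptprc were named after their values were seen. The method was tested on simulated data. That simulation changed only genes with levels above those of most histone genes and drew all libraries independently. It therefore does not show how reliable the histone calls are. DESeq2 1.42.0, other scaling, no filter, replicate blocks, fewer libraries and leaving out each library were tried as alternatives.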

Additional observations from a re-analysis of the deposited data

How the results depend on the processing

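No histone gene was called in HT-DNA, hpRNA or cGAMP against mock or in HSV against G3-YSD under any alternative run. For G3-YSD and HSV against mock the count of 2 called histone genes each moved with the processing, as did the calls over all genes (5.16% and 5.2%). DESeq2 called 5 and 5 histone genes (13.1% and 13.5% of all genes, 2208 and 2272), and edgeR without the filter on low counts called 7 and 8 of 61 tested (5.6% of all genes, 1894 and 1892). Upper-quartile scaling called 2 and 3, with 364 of 678 and 347 of 651 genes higher, against 302 of 869 and 291 of 876, and it moved the all-gene median of the log2 fold changes from 0.107 and 0.105 to 0.243 and 0.257. A fit of only the 4 libraries compared called 0 and 0, and also 0 of all genes. Leaving out 1 library gave 0 to 2 called histone genes in G3-YSD (0 to 652 of all genes) and 0 to 2 in HSV (0 to 682); a label left with 1 library is then assumed to vary like the others.

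The labels do not say that a replicate number marks a shared batch, and 2 pairs cannot settle it. The correlation over genes of same-numbered deviations was 0.465 to 0.786 for HT-DNA, hpRNA and cGAMP with mock, -0.413 and -0.417 for G3-YSD and HSV with mock, and 0.957 for HSV with G3-YSD. With the replicate block the fit of 12 libraries called 3 histone genes in G3-YSD and 4 in HSV (7.19% and 7.21% of all genes), and the fit of 4 libraries with the block called 0 and 0, and 0 of all genes. With the pairing crossed in that block, chosen after seeing the data, 8 of 21 and 8 of 22 histone genes tested were called (6.76% and 6.86% of all genes). Also chosen after seeing the data, leaving out both G3-YSD 1 and HSV 1 called 6 of 31 in G3-YSD and 10 of 31 in HSV, beside 43.6% and 43.7% of all genes. Leaving out both G3-YSD 2 and HSV 2 called 16 and 16 of 29, beside 38.3% and 39.1%.

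Of the 9 histone genes whose fold changes were followed singly, Hist3h2a reversed: its log2 fold change against mock was -0.76 without G3-YSD 1 and -0.47 without HSV 1, and -0.76 and -0.47 again without both. Leaving out 1 library gave -0.76 to 2.89 in G3-YSD and -0.47 to 2.94 in HSV. Among all 31 tested, other genes that were not called changed sign too, for example Hist2h3c2 without G3-YSD 1 and Hist1h3h without HSV 2, with at most 5 genes doing so under any 1 alternative. Hist1h4k was called under 8 of 13 alternatives in G3-YSD and 9 of 13 in HSV, with adjusted p up to 0.410 and 0.600. With coding length in place of exon length the median level of the histone genes was 0.728 instead of 0.475 CPM per kb. The causes of these changes were not tested. The 36 genes not tested had too few counts to pass the filter.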
